A study of Rattus norvegicus with 59 samples.

Results

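The mRNAs of the cytosolic ribosomal proteins were examined in rat liver after a single injection of cadmium (Cd) or chromium (Cr). Members were the probe sets, groups of short oligonucleotides that read 1 transcript, whose only annotated gene symbol begins with Rpl or Rps and a digit, or is Rpsa, Rplp0, Rplp1 or Rplp2, the S6 kinases (Rps6k) being left out. The rule gave 57 of 31042 probe sets and 50 of 14217 genes with a probe set of their own, 34 with Rpl symbols and 16 with Rps symbols. The rule reads symbols alone.

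Whole liver from male Sprague-Dawley rats was read on 59 Affymetrix rat genome arrays, 1 liver per array. Cd livers came from rats given CdCl2 at 1.25 mg/kg and taken on day 1 (n = 4), day 3 (n = 5) or day 7 (n = 5), and Cr livers from rats given Na2Cr2O7 at 20 mg/kg and taken on the same days (n = 5 each). Each metal had its own control livers from rats injected intraperitoneally with sterile saline, 5 on each day. The Cr dose is that of the labels, the high dose of the study. The methods text also gives a lower one for the arrays. A further Cd liver of day 1 was left out by the authors because its profile grouped with the controls and it had taken up no Cd, and it was not analysed here. Ages were not given in the sources used here. Whole liver mixes hepatocytes with macrophages, endothelial, stellate and other cells, so that fewer cells of a type and less RNA per cell cannot be told apart.

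The ribosome joins a small subunit, which reads the mRNA, to a large subunit, which forms the peptide bond and passes the new protein out through a tunnel. Proteins of the small subunit carry Rps names and those of the large subunit Rpl names, and cells make them in matched amounts. Their mRNAs are among the most abundant in liver and begin with a C followed by a run of pyrimidines (C or T in the gene), the 5′ terminal oligopyrimidine or TOP tract, through which growth signalling by mTOR controls their translation. Assembly happens first in the nucleolus, where a separate set of biogenesis factors makes and folds the ribosomal RNA.

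Promoter and start sequences from RefSeq (build GRCr8) were matched by symbol for 43 of the 50 genes. Windows of 15 bases before to 15 bases from the start site are shown for genes described below, because the TOP tract is the feature this family is known for. Capitals mark an unbroken run of C and T that begins with a C at the annotated start. The first 4 genes have such a run and the last 3, whose annotated start is not within one, do not.
Rplp0 (chr12:46718376-46718405, minus strand): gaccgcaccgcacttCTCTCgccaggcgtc
Rpl14 (chr8:129163605-129163634, plus strand): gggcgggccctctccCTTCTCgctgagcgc
Rpl22 (chr5:168117946-168117975, plus strand): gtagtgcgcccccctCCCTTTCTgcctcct
Rpl34 (chr2:221962269-221962298, minus strand): ccccttccttttcctCTTCCggggacggtg
Rpl6 (chr12:41011676-41011705, minus strand): tatttttacatcactagatggcgggtgaaa
Rps27l (chr8:76443643-76443672, plus strand): gtttattcatttgtcattatttgtggtgtc
Rpl23 (chr10:83272170-83272199, minus strand): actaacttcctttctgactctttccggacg

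A run of this kind, read on the transcript's own strand and at least 5 bases long, stood at the annotated start of 12 of 43 member genes (27.9%) and of 2.63% of all 33469 promoters in the table. With a C followed by 6 pyrimidines anywhere between 10 bases before and 15 bases after the start, the counts were 21 of 43 (48.8%) and 10.3%. The 6 letters CTTCCG, searched on both strands of the 300-base promoters and able to share bases with a pyrimidine run, were in 20 of 43 (46.5%) against 16.6% of all promoters. TATAAA was in 6 of 43 (14.0%) against 14.2%, and CACGTG in 3 of 43 (6.98%) against 6.42%, both strands read. These are counts of letters in fixed windows and do not show use of a site.

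Deposited values are log2 signals, on which 1 unit is a doubling. Levels are compared only between livers for the same probe set, since probes differ in how brightly they bind. Only probe sets whose mean over a metal's arrays was at or above the median of all such means were tested, 15521 for each metal. That left 51 member probe sets of 45 genes for Cd and 50 of 44 genes for Cr, each gene being read below by its brightest probe set unless stated. Dim and untested for both metals were Rpl3l, known as the striated muscle paralogue of Rpl3, with Rpl39l1, Rps4x-ps1 and a second probe set of Rpl14. So were the single-symbol probe sets of Rpl28 and Rpl30, genes also read by tested probe sets with several symbols, given below. Rpl26l1 was tested for Cd alone. Calls are at an adjusted p of 0.05 or less (limma, Benjamini-Hochberg over all probe sets tested), exposed minus same-day control.

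On day 1 after Cr nearly all measured ribosomal protein mRNAs were higher. Of 50 member probe sets 46 rose and 0 fell, where 27.9% of all probe sets tested rose and 17.8% fell. The median change over 44 genes was 0.43 on the log2 scale, or 1.35-fold, with its quartiles at 0.37 and 0.50, against a median of 0.04 over all probe sets tested. None reached the 1.8-fold change used as a threshold in the study's methods, which 2.64% of all probe sets passed upward. In 44 of 50 member probe sets every exposed liver was above every control liver, against 12.7% of all probe sets tested. The 2 genes that did not pass were Rpl37-ps2 and Rps4y2.

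Taken liver by liver, the rise was present in each exposed animal. The median deviation of 44 genes from the control mean was 0.50, 0.39, 0.42, 0.49 and 0.35 in the Cr exposed livers of day 1, against 0.03, -0.01, 0.01, -0.07 and 0.02 in the control livers. The groups were well apart, and between 41 and 44 of the 44 genes were above the control mean in each exposed liver. After Cd the same measure on day 1 was 0.19, 0.15, 0.30 and 0.05 in the exposed livers, against -0.01, -0.06, 0.03, -0.03 and 0.07 in the controls. Here the groups overlapped, since exposed replicate 5 lay below control replicate 5.

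**Figure D1:**
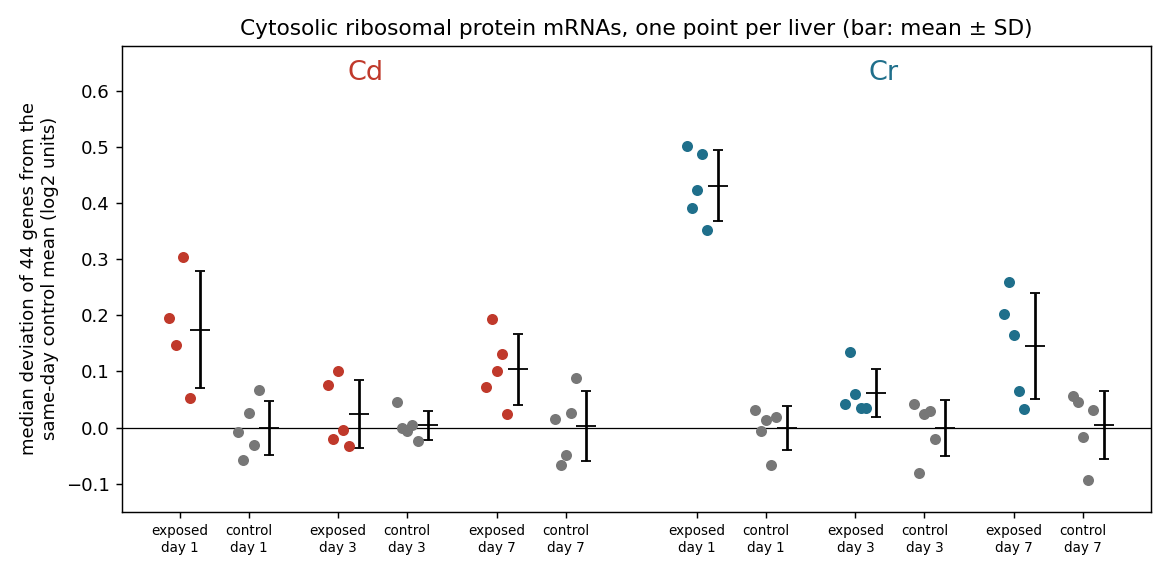
Median deviation of 44 ribosomal protein genes from the mean of the same-day controls (log2 units, vertical axis) for each liver, with exposed livers coloured and control livers grey, in pairs by metal and day; bars are the mean ± SD. The 5 Cr exposed livers of day 1 sit between 0.35 and 0.50, above every other liver of the series.

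Rpl6 and Rpl4, both proteins of the large subunit, had the largest rises after Cr. Rpl6 read 13.03, 12.71, 13.01, 13.18 and 12.83 in the Cr exposed livers of day 1, against 12.46, 12.14, 12.30, 12.26 and 12.35 in the controls. Every exposed liver was above every control, and Rpl6 rose by 0.65 ± 0.07 (SE; 1.57-fold, adjusted p = 1.7e-07). Rpl4, which lines the exit tunnel, read 13.09, 12.96, 13.06, 13.07 and 12.99 in the exposed livers, against 12.38, 12.56, 12.30, 12.37 and 12.43 in the controls. It rose by 0.63 ± 0.10 (1.54-fold, adjusted p = 1.0e-05), and the 5 exposed livers lay closer together (SD 0.06) than the controls (SD 0.10).

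The small subunit moved with the large. Of its 15 tested genes 14 rose after Cr, with a median of 0.43. Of 29 large subunit genes 28 rose, with a median of 0.44, where 27.9% of all probe sets tested rose. Rps16, which reaches toward the mRNA decoding site, averaged 12.57 ± 0.11 in exposed livers and 11.97 ± 0.07 in control livers (SD, n = 5 each) and rose by 0.59 ± 0.07. Rpsa, also known as the laminin receptor precursor, rose by 0.56 ± 0.07, and its 2 other probe sets rose by 0.54 and 0.60. Rps3, at the mRNA entry channel, rose by 0.47 ± 0.06. Rps6, the small subunit protein phosphorylated by the S6 kinases, rose by 0.47 ± 0.06.

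Among large subunit proteins with a known partner or site, Rplp0, the base of the stalk that recruits elongation factors, read 13.01, 12.71, 12.80, 13.00 and 12.81 in the Cr exposed livers, against 12.46, 12.29, 12.24, 12.27 and 12.36 in the controls. It rose by 0.54 ± 0.07 (adjusted p = 4.7e-07), with no overlap. Rpl5 and Rpl11, which bind the 5S ribosomal RNA and, when free, the p53 regulator MDM2, rose by 0.49 ± 0.06 and 0.55 ± 0.06. Rpl3, next to the site of peptide bond formation, rose by 0.53 ± 0.06. Rpl14, Rpl23 and Rpl34 rose by 0.58, 0.55 and 0.55. Rpl13a and Rpl22, known also for roles outside the ribosome, rose by 0.49 and 0.45, Rpl23a and Rpl7 by 0.39 and 0.38, and Rpl39, a small protein of the exit tunnel, by 0.34 ± 0.06.

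**Figure D2:**
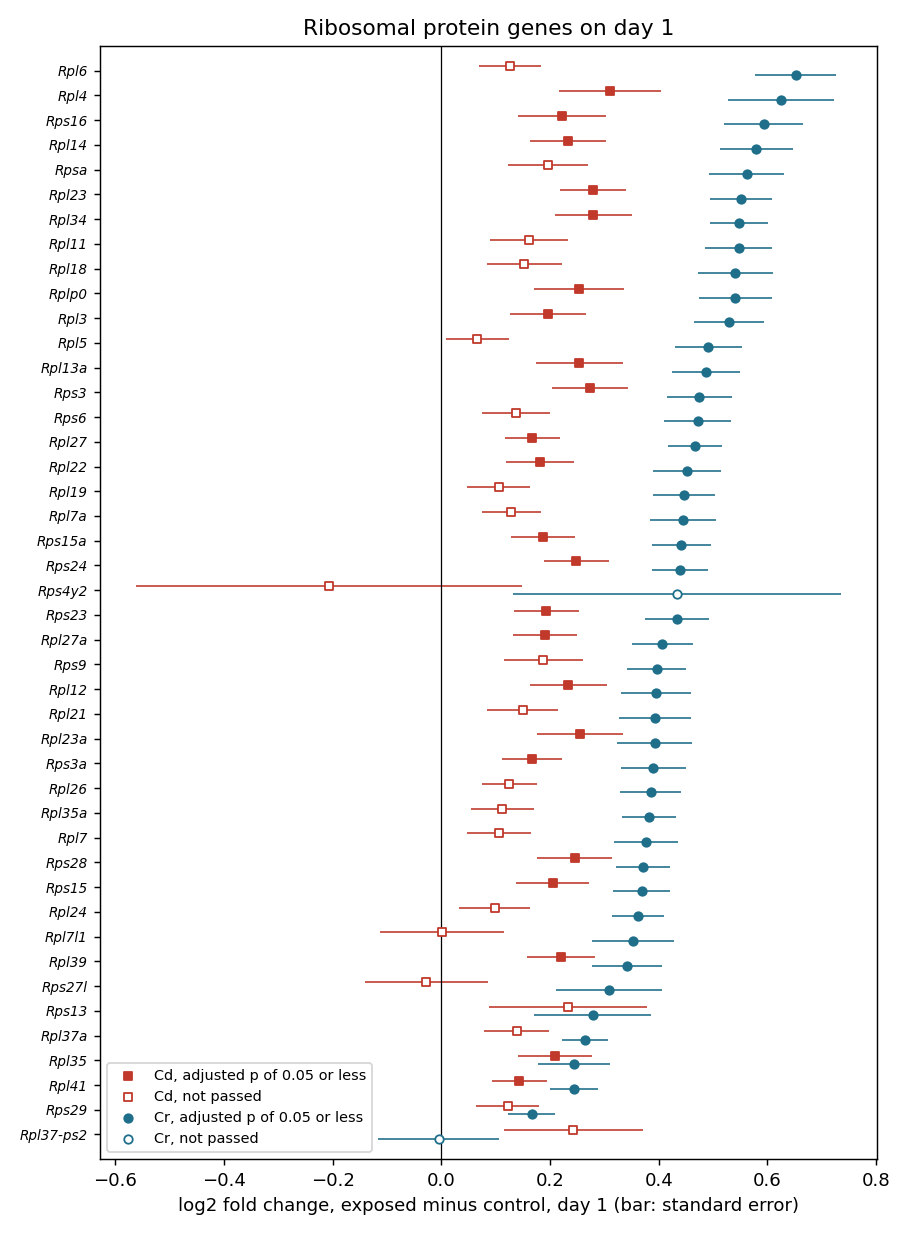
Log2 fold change on day 1, exposed minus control, for the 44 genes tested for both metals, ordered by the Cr change; squares are Cd and circles Cr, bars are standard errors, and filled symbols passed an adjusted p of 0.05. Filled Cr circles run from 0.17 for Rps29 to 0.65 for Rpl6, and most Cd squares lie between 0.1 and 0.3.

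After Cd the rise on day 1 was smaller and passed the test for fewer members. Of 51 probe sets 25 rose and 0 fell, where 12.9% of all probe sets tested rose and 10.5% fell. By gene, 23 of 45 rose, with a median of 0.19 (1.14-fold) against 0.01 over all probe sets tested. None reached 1.8-fold, which 1.93% of all probe sets did upward. In 13 of 51 probe sets the exposed and control livers did not overlap, against 9.66% of all. The count rested on single livers. Without exposed replicate 4, which had the largest deviation, 6 member probe sets rose and the median over genes was 0.13. Without exposed replicate 1, 15 rose, and without control replicate 2, 16 rose.

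The largest Cd changes that passed, by the brightest probe set of a gene, were in Rpl4, Rpl34, Rpl23, Rps3 and Rpl23a. Rpl4 read 12.45, 12.59, 12.65 and 12.54 in the Cd exposed livers of day 1, against 12.15, 12.20, 12.20, 12.34 and 12.36 in the controls. All 4 exposed livers were above all 5 controls, and the rise was 0.31 ± 0.09 (1.24-fold, adjusted p = 0.017), which did not pass without exposed replicate 4 (0.28). Rpl23, known in human cells to bind MDM2 when free, read 12.64, 12.56, 12.72 and 12.52 in exposed livers, against 12.33, 12.27, 12.39, 12.29 and 12.39 in controls. It rose by 0.28 ± 0.06 (adjusted p = 0.0011), also without overlap.

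Rps3 read 12.27, 12.24, 12.46 and 11.99 in the Cd exposed livers, against 12.02, 11.91, 11.94, 11.93 and 12.03 in the controls. Exposed replicate 5 fell among the controls, and the rise was 0.27 ± 0.07 (adjusted p = 0.0048). Rpl34 and Rpl23a rose by 0.28 ± 0.07 and 0.26 ± 0.08, Rplp0 and Rpl13a by 0.25 ± 0.08 each, Rpl14 by 0.23, and Rps16 and Rpl39 by 0.22 each, with Rpl3 and Rpl22 at 0.20 and 0.18. Of these, Rpl14, Rpl23a, Rplp0, Rpl13a, Rps16, Rpl3 and Rpl22 each lost the call when 1 of the livers was left out. Rps16, with an adjusted p of 0.048, lost it under 9 alternatives.

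Several genes with large Cr changes did not pass after Cd. Rpl6 read 12.41, 12.40, 12.62 and 12.39 in the Cd exposed livers, against 12.34, 12.27, 12.35, 12.32 and 12.36 in the controls. The exposed livers were just above the controls, with replicate 4 far from the others, for a difference of 0.13 ± 0.06 (adjusted p = 0.12). Rpl5 read 12.88, 12.82, 12.99 and 12.77 in the Cd exposed livers, against 12.79, 12.75, 12.79, 12.80 and 12.87 in the controls, so that the groups overlapped (0.07 ± 0.06, adjusted p = 0.45). Rpl11, Rps6 and Rpl7 were at 0.16, 0.14 and 0.11 and did not pass. Rpsa was at 0.20 with an adjusted p of 0.053. Its other probe sets were at 0.18, which did not pass, and 0.32, which did. Against the controls of all 3 days pooled, Rpl6, Rps6 and Rpsa passed (0.14, 0.15 and 0.22). Rpsa also passed under 4 other alternatives of processing and without either of 2 single livers, and Rpl11 passed without control replicate 1 (0.21) or exposed replicate 5 (0.22).

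The difference between the metals on day 1 was tested directly, as the Cd change minus the Cr change, each against its own controls. It passed as lower for 30 of 51 member probe sets and as higher for 0, where 15.3% of all probe sets passed as lower. The median difference over genes was -0.26, against -0.03 over all probe sets. Doses of the metals are not matched, so the difference holds for these doses. Rpl6 had the largest difference that passed (-0.53 ± 0.09, adjusted p = 4.3e-05), followed by Rpl5 (-0.42 ± 0.08, adjusted p = 0.00013). Rpl11, Rps16, Rpsa, Rpl7l1, Rpl14, Rps6, Rpl3, Rplp0, Rpl23, Rpl22, Rpl7 and Rpl34 differed by -0.39 to -0.27.

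For Rpl4, Rps3, Rpl13a, Rpl23a, Rpl39 and Rps27l the difference did not pass, which does not show that the metals acted alike on them. For Rpl4 it was -0.32 (95% interval -0.59 to -0.04, adjusted p = 0.083), for Rps3 -0.20 (-0.38 to -0.02) and for Rpl13a -0.23 (-0.43 to -0.04). For Rpl23a it was -0.14 (-0.34 to 0.07) and for Rpl39 -0.12 (-0.30 to 0.05). On days 3 and 7 no member probe set differed between the metals (limma), where 0.058% and 0.722% of all probe sets did. At an unadjusted p of 0.05, 0 and 3 of 51 were lower, where 3.81% and 8% of all probe sets were.

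Across the 44 genes tested for both metals, the Cd and Cr changes on day 1 correlated with r = 0.17 (Pearson) and rho = 0.29 (Spearman). Over the 38 of them with a mean signal of 11 or more these were 0.35 and 0.36. Genes within a liver share its RNA and are not independent, and the values describe these genes only. In the same 38 genes the Cr change ran from 0.17 to 0.65 (SD 0.11) and the Cd change from 0.07 to 0.31 (SD 0.06), so the family moved as a narrow band. The change against mean signal had an r of -0.39 for Cr and -0.36 for Cd over these 38 genes, but of 0.41 for Cr and 0.22 for Cd over all 44. Rps29, which had the smallest Cr change that passed and was chosen after its values were seen, averaged 13.72 ± 0.04 in Cr exposed livers and 13.55 ± 0.07 in control livers (SD, n = 5 each), a rise of 0.17 ± 0.04. The highest signal of any probe set on these arrays was 14.9.

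Genes with a TOP tract at the annotated start changed about as much as those without one there. The mRNAs of this family are known to begin with the tract, so genes without it at the annotated start may still carry it. The division therefore reads the annotation and cannot compare TOP mRNAs with others. Among bright members with a promoter entry, the median Cr change was 0.42 for 10 genes with the tract and 0.46 for 24 without it, and the median Cd change was 0.19 for both. Rpl6, with the largest Cr change, and Rpl34, with one of the largest Cd changes, fall on different sides of that division, as the start windows above show.

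**Figure D3:**
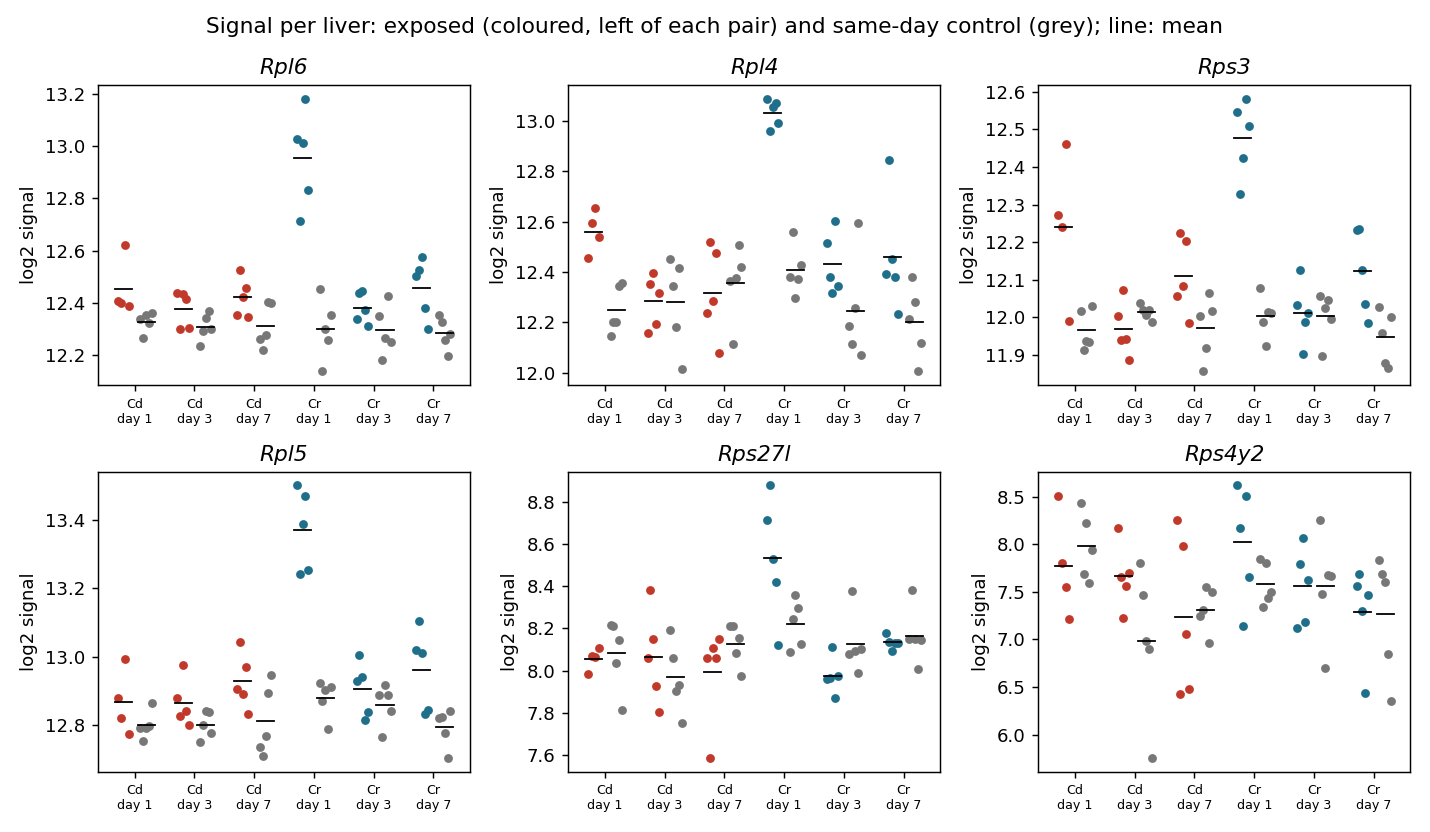
Log2 signal per liver for 6 genes, by metal and day, with exposed livers coloured and left of the grey same-day controls and a line at each mean. Rpl6, Rpl4, Rps3 and Rpl5 stand apart on Cr day 1, Rps27l is above all controls there in 4 of 5 livers, and Rps4y2 is scattered in every group.

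Paralogues that stand outside or only partly within the core ribosome are given separately, and no test set them against the other members. Rps27l, the paralogue of Rps27 known as a p53 target, read 8.71, 8.88, 8.53, 8.42 and 8.12 in the Cr exposed livers of day 1, against 8.09, 8.25, 8.36, 8.30 and 8.13 in the controls. Exposed replicate 5 was among the controls. Rps27l rose by 0.31 ± 0.10 (adjusted p = 0.011), a call lost when the arrays were quantile normalized again (0.22). After Cd it was at -0.03 ± 0.11, and the difference between the metals did not pass (-0.34, adjusted p = 0.093).

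Rpl7l1, a paralogue of Rpl7 that is associated with early large subunit assembly, read 9.27, 9.06, 9.23, 9.25 and 8.97 in the Cr exposed livers, against 8.75, 8.84, 8.89, 8.65 and 8.87 in the controls. It rose by 0.35 ± 0.08 (adjusted p = 0.00038), and a second probe set rose by 0.44. After Cd the same probe sets were at 0.00 and 0.04. The difference between the metals passed narrowly for the brighter one (-0.35, adjusted p = 0.0498) and for the other at -0.40.

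Other dim members varied, and some were noisy. A dim Rpl3 probe set changed by 0.23 after Cr and -0.03 after Cd, and a dim Rpl7 one by 0.10 and -0.05, none of which passed, while the dim Rps24 one rose by 0.53 and 0.48. Rpl37-ps2, annotated as a transcribed pseudogene, was at -0.0050 after Cr and 0.24 after Cd, neither of which passed. Rps4y2, chosen after its values were seen, had a standard error of 0.30 for Cr and 0.36 for Cd on day 1, where Rpl6 had 0.07 and 0.06. Its Cd control livers of day 3 ranged from 5.75 to 7.81, and no comparison of it passed.

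On the later days no member passed the test, though most changes were above 0. Above 0 on day 3 were 33 of 51 Cd and 46 of 50 Cr member probe sets. Members share the RNA of each liver, so their signs are not independent, and the share over all probe sets was not counted. On day 3, 0 of 51 Cd and 0 of 50 Cr member probe sets passed (limma), where 1.35% and 0% of all probe sets did in either direction. At an unadjusted p of 0.05, 2 and 5 were higher, where 8.18% and 5.56% of all probe sets were. In 1 member probe set for each metal the exposed livers were all above the controls, where 2.48% of all probe sets for Cd and 1.6% for Cr were. Median changes over genes were 0.02 for Cd and 0.06 for Cr, against -0.0004 and 0.008 over all probe sets. Tested as day 3 minus day 1, the Cr change fell for 40 of 50 member probe sets (median over genes -0.38), where 15.4% of all probe sets fell and 0 member probe sets rose. Rps16 and Rpl6 fell most, by 0.57 each, and Rpl14, Rpl23, Rpl34 and Rpsa fell by 0.55, 0.54, 0.54 and 0.51. For Cd 3 of 51 passed, Rps3 and Rpl34, which fell by 0.32 each, and Rps24, named after its values were seen, by 0.25. Of all probe sets 5.37% fell in that test.

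On day 7 the count that passed was 0 for either metal (limma), where 0.0258% of all probe sets passed for Cd and 0.232% for Cr. Without Cr exposed replicate 5, 3 passed as higher, one of them Rpl3 at 0.30, and without replicate 4, 1 did. At an unadjusted p of 0.05, 29 of 50 Cr probe sets were higher and 1, Rpl37-ps2, was lower, where 6.72% of all probe sets were higher. For Cd 15 of 51 were higher, where 3.32% of all probe sets were. The median over genes was 0.15 for Cr and 0.12 for Cd, against 0.02 and -0.02 over all probe sets. Under the 7 alternatives of processing, pooled controls among them, it was 0.11 to 0.15 for Cr and 0.10 to 0.13 for Cd. The Cr controls of day 7 themselves had a median of -0.09 relative to those of day 1, against -0.01 over all probe sets. The part of that in the day 7 changes was not tested. Of the Cr probe sets 47 of 50 were above 0, and of the Cd ones 45 of 51, signs that are again not independent. In 6 Cr probe sets the livers did not overlap, where 1.99% of all did, and in 0 Cd ones, where 0.425% did.

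The livers of day 7 were uneven. The median deviation of the 44 genes was 0.20, 0.26, 0.17, 0.07 and 0.03 in the Cr exposed livers of day 7, against 0.06, 0.05, -0.02, -0.09 and 0.03 in the controls. Exposed replicates 1 to 4 were above all controls, replicate 4 only just, and replicate 5 was among them. The Cd exposed livers were at 0.07, 0.19, 0.10, 0.13 and 0.02, against 0.02, -0.07, -0.05, 0.03 and 0.09 in the controls, and overlapped them. Rpl3, with the smallest p among members on Cr day 7, averaged 0.26 higher in exposed livers, with an adjusted p of 0.072.

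**Figure D4:**
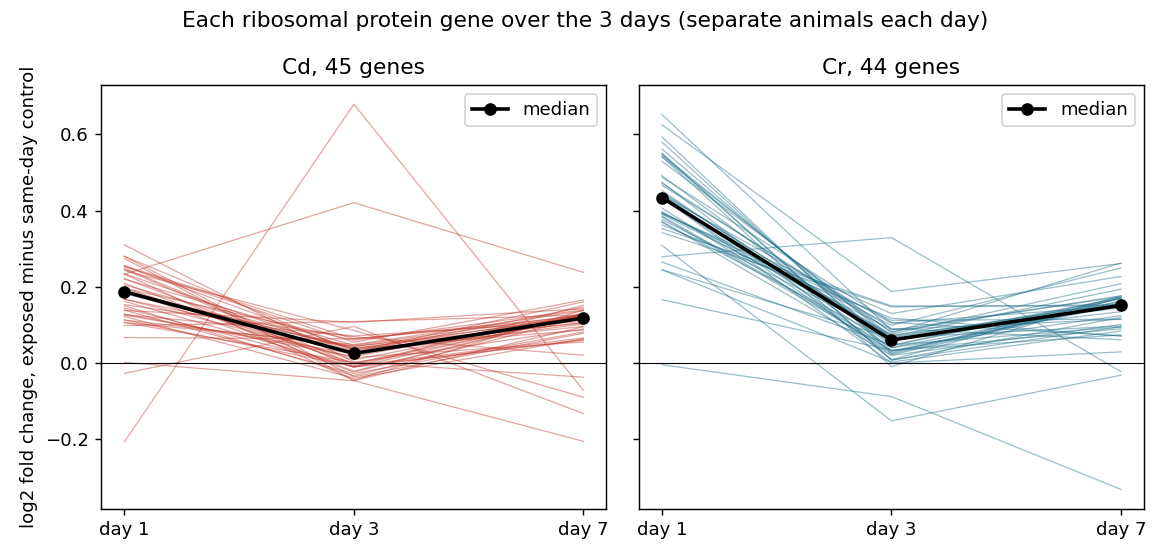
Log2 fold change against same-day controls on days 1, 3 and 7 for each gene (thin lines, 45 for Cd and 44 for Cr) with the median in black; the animals differ between days. The Cr median is 0.43, 0.06 and 0.15 and the Cd median 0.19, 0.02 and 0.12 on the 3 days.

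Among the controls no member probe set passed between days 1 and 3 or days 1 and 7 for either metal (limma), where 0.696% and 0.348% of all probe sets did for Cd and 0% and 1.13% for Cr. At an unadjusted p of 0.05, 2 and 0 members were lower in the later Cd controls and 4 and 9 in the later Cr controls, where 4.63%, 3.13%, 4.68% and 6.4% of all probe sets were. The median over genes in the Cr controls of day 7 was -0.09 relative to day 1.

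A further 36 probe sets name several ribosomal protein symbols, mostly a gene with its near-identical copies or pseudogenes, and lie outside the member rule. They cover Rplp1, Rps19, Rps27, Rpl22l1, Rpl36a, Rpl28 and Rpl30 among others. On day 1 after Cr the one naming Rpl28 rose by 0.36, and those naming Rpl30 by 0.40 and 0.51. None of these passed on day 1 after Cd. On day 1 after Cr, 33 of the 35 tested rose and 0 fell (median 0.41), where 27.9% of all probe sets rose and 17.8% fell. After Cd 17 rose and 0 fell (median 0.17), where 12.9% of all probe sets rose and 10.5% fell. None passed on days 3 or 7. Members with single symbols can also bind such copies, whose reads an array cannot divide.

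Other bright probe sets went in both directions on day 1, with more falling than rising. Of 818 other probe sets with a mean signal of 11 or more, 21% rose and 40.5% fell on day 1 after Cr, with a median of -0.10, and 14.9% rose and 30.4% fell after Cd, with a median of -0.08.

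Other genes of translation are set here against the shares of all probe sets that rose on day 1, 27.9% after Cr and 12.9% after Cd. Of 35 tested translation factors, 30 rose and 1 fell after Cr (median 0.52) and 11 rose and 0 fell after Cd (median 0.16). Eif4a1, the helicase of initiation, rose by 1.07 ± 0.12 after Cr, Eif2s1, a subunit of the factor that brings the initiator tRNA, by 0.96 ± 0.12, and Eif6, which keeps free large subunits from joining, by 0.88 ± 0.13. After Cd, Eif6, Eef1b2 and Eif3b rose by 0.39, 0.39 and 0.34. Of 12 tested TOP mRNAs that code for other proteins, 11 rose and 0 fell after Cr (median 0.42). After Cd 2 rose and 0 fell (median 0.10), a share near that of all probe sets. Rack1, a protein of the small subunit without an Rps name, rose by 0.63 ± 0.08 after Cr and by 0.24 ± 0.06 after Cd.

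Ribosome biogenesis genes had a larger median change than the ribosomal proteins after Cr, with no test between the 2 lists, whose probe sets differ. Of 50 tested, 49 rose and 0 fell (median 0.86). They were led by Gar1 (1.58 ± 0.15), a core protein of the particles that pseudouridylate ribosomal RNA. Wdr43 (1.52 ± 0.14) and Nop56 (1.40 ± 0.14), a core protein of the particles that methylate this RNA, came next. After Cd 12 rose and 0 fell (median 0.20), led by Fbl, the methyltransferase of those particles, Ddx21 and Nolc1 at 0.52, 0.51 and 0.51. Mitochondrial ribosomal proteins, which serve a separate ribosome, had 45 of 73 higher and 2 lower after Cr (median 0.25), where 27.9% of all probe sets rose. After Cd 5 were higher and 3 lower (median -0.02), fewer than the 12.9% and 10.5% of all probe sets. None of these 4 lists had a member that passed on day 3 or day 7.

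Of 16 tested genes that control TOP mRNA translation or respond to free ribosomal proteins, 5 rose and 4 fell after Cr and 1 rose and 2 fell after Cd. These counts are near the shares of all probe sets, 27.9% and 17.8% after Cr and 12.9% and 10.5% after Cd. Mdm2, the p53 ligase that Rpl5 and Rpl11 bind, rose by 1.36 ± 0.27 after Cr, the transcription factor gene Myc by 1.01 ± 0.38, and Eif4ebp1, a translation repressor inhibited by mTOR, by 0.66 ± 0.13. After Cd, Eif4ebp1 rose by 0.50 ± 0.09, and Tsc1 and Tsc2, the partners that restrain mTOR, fell by 0.38 and 0.21. On day 3 after Cd Myc rose by 1.46 ± 0.32, and on day 7 after Cr Ddit4, another brake on mTOR, rose by 1.57 ± 0.29.

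**Figure D5:**
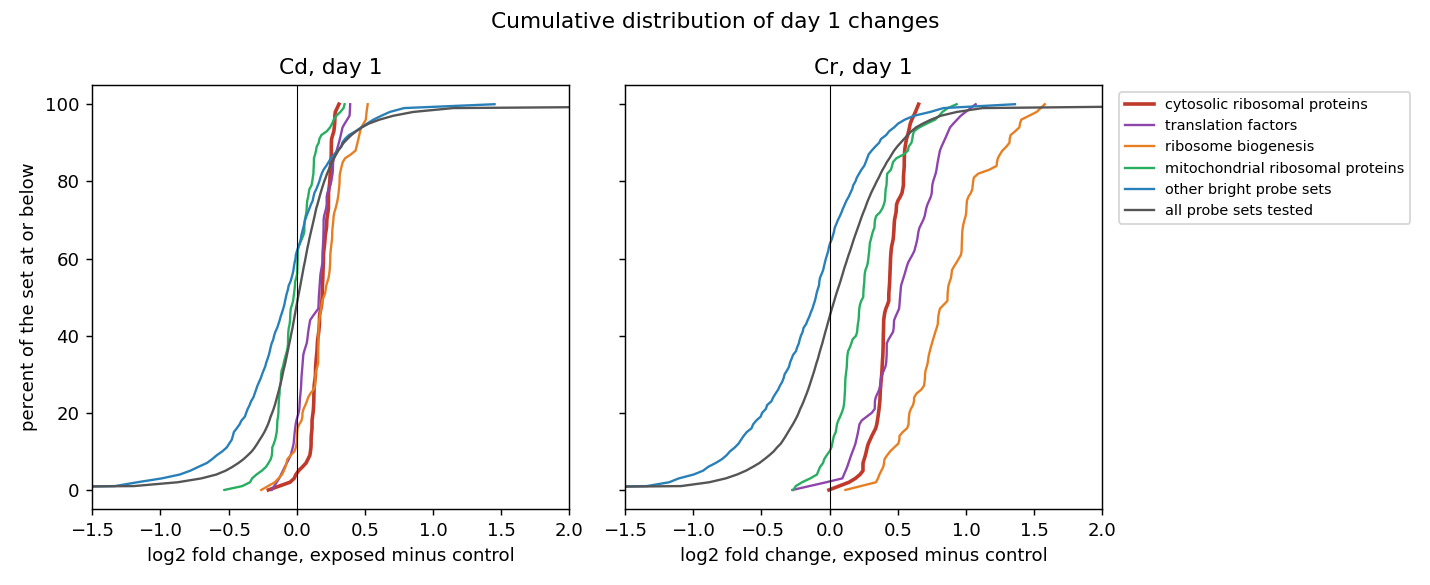
Cumulative share of each gene set (percent, vertical axis) at or below each log2 fold change on day 1 after Cd and after Cr. After Cr the ribosomal proteins form a steep line around 0.43, left of ribosome biogenesis (median 0.86) and right of other bright probe sets (median -0.10).

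Some cell type markers moved with the exposed groups on day 1. Of all probe sets tested, 27.9% rose and 17.8% fell after Cr, and 12.9% rose and 10.5% fell after Cd. After Cd all 8 Kupffer cell and macrophage markers tested fell (median -3.17, Cd163, Clec4f and C1qa among them), with a summed log2 level of 8.31 to 10.7 in exposed livers against 11.7 to 12.1 in controls. Both neutrophil markers tested, S100a8 and S100a9, rose (3.63 and 3.64). The summed level of all 4 neutrophil markers with a probe set, tested or not, was 9.53 to 11.2 against 6.69 to 7.55. After Cr 1 of 8 Kupffer markers rose and 0 fell, at a summed 11.8 to 12.3 against 11.8 to 12.03. The 1 neutrophil marker tested rose, and the sum of the 4 was 7.22 to 8.80 against 6.50 to 7.38. The part of these cell types in the ribosomal protein values was not tested.

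Hepatocyte markers, the abundant ones of this tissue, had 2 of 5 higher and 0 lower after Cr on day 1. Their summed level was 16.70 to 16.76 in exposed livers against 16.61 to 16.65 in controls, without overlap. After Cd 1 was higher and 1 lower, at 16.62 to 16.69 in exposed livers against 16.60 to 16.68 in controls. Of 4 endothelial markers 1 rose after each metal, and of the stellate markers 1 of 4 fell after Cr and 0 of 5 passed after Cd. The 1 cholangiocyte marker tested rose after Cr and fell after Cd. The shares of all probe sets are those given above for the other markers. No T or B cell marker was bright enough to test, and their summed level was 6.75 to 7.10 in Cd exposed livers against 6.46 to 6.77 in controls. The 3′ minus 5′ signal of GAPDH, which grows as RNA is degraded, was 0.14 to 0.82 in Cr exposed livers of day 1 against 0.39 to 0.85 in controls, and 0.30 to 0.68 against 0.32 to 0.72 for Cd. That of beta-actin was 1.62 to 2.51 in Cr exposed livers against 1.92 to 2.46 in controls. For Cd it was 1.82 to 2.19 against 1.76 to 2.33. These ranges overlapped, but after Cr the exposed medians were below the lowest control. The Cr medians were 0.20 in exposed livers against 0.47 in controls for GAPDH, and 1.69 against 2.13 for beta-actin. The Cd medians were 0.41 against 0.37 for GAPDH and 1.97 against 1.88 for beta-actin. The 5S ribosomal RNA probe set read 5.94 to 7.05 in Cr exposed livers against 5.44 to 6.04 in controls, and 5.73 to 6.29 against 5.13 to 5.91 for Cd. The part of these in the results was not tested.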

How the data were processed

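The authors deposited log2 signals per probe set, made with RMA in Partek from 59 arrays. How the arrays were grouped for normalization was not given in the sources used here. The present calls used in the study were not used here. Array medians lay between 5.38 and 5.46 and no 2 arrays were identical. The number of arrays limits the precision. The 57 array control probe sets were left out of the tests. Of the others, 20832 probe sets have 1 symbol and 9780 have none in the annotation used here.

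For each metal, 6 groups were fitted together with limma 3.58.1 in R 4.3.3 (lmFit, eBayes), with exposed minus same-day control as contrasts; the filter and threshold are those of the report. Both metals were fitted together for the metal difference. The methods compare exposed livers with the pooled controls of all days, which is an alternative here. Code was tested on simulated data. Each array is 1 animal. Other alternatives were no filter, a mean of 6 or more, quantile normalization again, median centring, an intensity trend with robust spread, a replicate block, and leaving out each liver.

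Members and gene lists were chosen with earlier results of these data known. Genes named are a set list of members, the 5 with the largest called rises per comparison, and up to 3 per other list. Fold changes were summarised with Python and pandas. Sequences are from RefSeq, GRCr8.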

Additional observations from a re-analysis of the deposited data

Results flagged for a closer look

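In groups of 4 or 5 livers, the sample farthest from the others was examined for the median of the 44 genes and for each named gene, 252 groups of values in all. A far sample was found in 8 of them, where chance gives about 1 in 20. On Cr day 3 exposed replicate 2 was high for the median deviation (0.13) and for Rpl11 (12.4), and exposed replicate 4 was low for Rps16 (12.03). On Cd day 1 exposed replicate 4 was high for Rpl6 (12.6), the same liver whose removal takes the count of member probe sets that rose to 6. Low samples were Rpl13a in Cd control day 3 replicate 1 (12.1), Rpl7 in Cr control day 3 replicate 2 (12.4), Rplp0 in Cd control day 7 replicate 3 (12.2) and Rps27l in Cd exposed day 7 replicate 2 (7.59).

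A change that differed between the metals on day 1 (Cd change minus Cr change, limma, adjusted over all probe sets) was found for 14 named genes, all with the smaller change after Cd. The differences were -0.53 for Rpl6, -0.42 for Rpl5, -0.39 for Rpl11, -0.37 for Rps16, -0.37 for Rpsa, -0.35 for Rpl7l1, -0.35 for Rpl14, -0.33 for Rps6, -0.33 for Rpl3, -0.29 for Rplp0, -0.27 for Rpl23, -0.27 for Rpl7, -0.27 for Rpl22 and -0.27 for Rpl34.

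A change that differed between day 3 and day 1 was found for Rps3 and Rpl34 after Cd (-0.32 each) and for 18 named genes after Cr, all with the smaller change on day 3. The Cr differences were -0.57 for Rps16, -0.57 for Rpl6, -0.55 for Rpl14, -0.54 for Rpl23, -0.54 for Rpl34, -0.51 for Rpsa, -0.48 for Rpl11, -0.47 for Rplp0, -0.47 for Rps3, -0.46 for Rps27l, -0.45 for Rpl3, -0.45 for Rpl5, -0.44 for Rpl4, -0.41 for Rpl22, -0.39 for Rps6, -0.38 for Rpl13a, -0.30 for Rpl7 and -0.26 for Rpl23a.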

How the results depend on the processing

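On Cr day 1 the count of member probe sets that rose was 44 to 47 under the 7 alternatives of processing and 45 to 47 without single livers, and the median over genes 0.40 to 0.49 and 0.41 to 0.46. On Cd day 1 the count was 17 (no filter) to 35 (pooled controls), but 6 to 29 without single livers, with a median of 0.17 to 0.19 and 0.13 to 0.23. No member probe set fell in any of the 6 comparisons under any alternative run. Without single livers the counts that rose were 0 to 1 on Cr day 3 and 0 to 3 on Cr day 7, and 0 under the other alternatives. The day difference for Cd was called for 3 member probe sets, for 0 with no filter, and for 5 with a mean of 6 or more, with median centring or with the intensity trend; the cause was not tested. The metal difference was 23 to 30 and the Cr day difference 38 to 41.

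With the replicate block 25 member probe sets rose on Cd day 1 and 47 on Cr day 1. Rps16 on Cd day 1 did not pass with the block (0.23). Same-numbered livers correlated with r of -0.11 to 0.28 (mean 0.13, against -0.03 for other numbers), and 16 of 29 exposed livers matched their own number best, a hint from the data and not from the design. Each exposed liver had 5 control livers of its metal and day to match. The labels do not call the numbers pairs, and the main fit did not pair the livers. Whether same-numbered livers shared their handling was not tested.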
